A study of Mus musculus with 12 samples.

Results

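The RGS genes encode regulators of G protein signalling, and 8 of them that are active in blood cells (Rgs1, Rgs2, Rgs3, Rgs10, Rgs14, Rgs16, Rgs18 and Rgs19) were followed through 5 sorted mouse CD4 T cell groups. They were chosen by gene symbol, and all 18 probe sets annotated to them on the Affymetrix mouse array are reported, out of 45101 probe sets in all. Of these 18, 14 probe sets of 7 genes passed the filter on low values, which asked for a log2 signal of 5 or more on at least 2 of 12 arrays. The probe sets that did not pass were 1 of Rgs2, 1 of Rgs16 and both of Rgs18.

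An activated chemoattractant receptor loads the alpha subunit of its G protein with GTP, and the freed subunits pass the signal on. RGS proteins bind the active alpha subunit and speed its hydrolysis of GTP, which ends the signal sooner. In lymphocytes most chemoattractant receptors act through Gi, so the RGS content of a cell helps to set how strongly it responds to chemokines and to sphingosine-1-phosphate. Rgs1, Rgs2, Rgs3, Rgs16 and Rgs18 belong to the subfamily of small RGS proteins that consist of little more than the RGS domain, although Rgs3 also has long isoforms. Rgs10 and Rgs14 form another subfamily, and Rgs19, also called GAIP, belongs to neither.

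All mice carried 1 S1pr2 allele with the Venus reporter (S1pr2V/+), which marks expression of this sphingosine-1-phosphate receptor, and all labels describe them as immunized with CGG in CFA 10 days before sorting. Every gate except the naive one took CD4+ CD44-high cells of the lymph nodes. Within it, Venus-high Tfh and Venus-low Tfh (3 arrays each) were CXCR5+ and PD1-high, PD1-intermediate Th (2 arrays) were CXCR5+, and PD1-low Th (2 arrays) were CXCR5-low. Naive CD4 T cells (2 arrays) were CD44-low CD62L-high cells of the spleen, for which the series' design text also mentions control mice. An array held the pooled cells of 4 or 6 mice, or of 2 mice in the naive group. The labels do not say that the pools of 1 group came from separate experiments, so the p-values measure the spread between these arrays, and their number limits the precision.

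The arrays fell into 3 sets by the shape of their signal distributions, which the labels do not name. The upper quartile of the log2 signal was 8.50 to 8.55 in set 1 (3 arrays), 8.68 to 8.76 in set 2 (4 arrays) and 9.39 to 9.42 in set 3 (5 arrays). Replicates 1, 2 and 3 of both Tfh groups lay in sets 1, 2 and 3, both PD1-intermediate arrays in set 3, PD1-low replicates 1 and 2 in sets 2 and 3, and naive replicates 1 and 2 in sets 1 and 2. In set 2, 3315 probe sets lay over 3 log2 units from both other sets in 1 direction, against 542 in set 1 and 234 in set 3. Of the Rgs probe sets, 1 was displaced in this way, 1425701_a_at of Rgs3 in set 1. S1pr2, whose reporter defined the Tfh gates, read 2.64 ± 0.35 (SE, n = 3 and 3) higher in Venus-high than in Venus-low Tfh. All 7 CD4 T cell markers were at log2 5 or more on some array of every group. Of the markers of other cells, 3 of 5 B cell markers (Cd79a, Ms4a1 and Blk), 2 of 4 CD8, NK and gamma delta T cell markers (Cd8a and Ncr1), 4 of 5 myeloid markers (Lyz2, Csf1r, Cd14 and Itgam) and 4 of 4 platelet markers lay below it on every array. The others reached it on some arrays, with highest values of 8.99 for Cd79b, 5.96 for the displaced Pax5, 11.50 for Klrd1, 6.62 for Cd8b1 and 13.19 for Cst3.

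RefSeq (GRCm38.p6) promoter windows, from 250 bases before to 50 bases after a start, were at hand for 5 of the 8 genes and for 8 starts. Those of Rgs16 and Rgs3 are shown because, among the genes with a window, their group means differed most, and Rgs3 has more than 1 start. That of Rgs2 is shown because it alone held a CAGCTG. Capitals mark matches on either strand to the E boxes CAGCTG and CAGGTG, the AP-1 site TGAGTCA and the TATA sequence TATAAA, which do not overlap here.
Rgs16 (chr1:153740103-153740402, plus strand): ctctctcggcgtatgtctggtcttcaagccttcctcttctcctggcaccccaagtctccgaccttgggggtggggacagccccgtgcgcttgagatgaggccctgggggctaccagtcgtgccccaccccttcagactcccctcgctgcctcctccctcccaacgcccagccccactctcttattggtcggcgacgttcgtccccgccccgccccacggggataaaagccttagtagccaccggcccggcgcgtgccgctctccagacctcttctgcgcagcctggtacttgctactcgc
Rgs3, first start (chr4:62559597-62559896, plus strand): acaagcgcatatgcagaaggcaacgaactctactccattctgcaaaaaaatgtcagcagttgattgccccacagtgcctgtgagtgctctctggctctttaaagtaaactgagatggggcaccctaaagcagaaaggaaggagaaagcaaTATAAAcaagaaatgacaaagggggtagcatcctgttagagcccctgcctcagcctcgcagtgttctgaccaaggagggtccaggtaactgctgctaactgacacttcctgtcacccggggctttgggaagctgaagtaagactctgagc
Rgs3, second start (chr4:62619422-62619721, plus strand): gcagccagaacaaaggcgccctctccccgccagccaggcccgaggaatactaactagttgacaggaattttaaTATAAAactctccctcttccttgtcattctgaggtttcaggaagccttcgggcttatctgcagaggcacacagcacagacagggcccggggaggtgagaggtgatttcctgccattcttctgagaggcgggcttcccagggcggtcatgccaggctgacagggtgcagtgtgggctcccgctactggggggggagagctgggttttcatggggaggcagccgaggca
Rgs2 (chr1:144004100-144004399, minus strand): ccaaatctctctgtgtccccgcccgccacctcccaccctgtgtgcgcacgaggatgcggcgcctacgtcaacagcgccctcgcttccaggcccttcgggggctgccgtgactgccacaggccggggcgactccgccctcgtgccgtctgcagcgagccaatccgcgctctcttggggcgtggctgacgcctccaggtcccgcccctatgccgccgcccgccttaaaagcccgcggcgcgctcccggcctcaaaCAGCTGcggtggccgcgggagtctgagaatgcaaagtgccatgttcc
The Rgs16 and Rgs2 windows were GC-rich, at 66.0% and 70.0%, with 22 and 33 CpG dinucleotides. Both Rgs3 windows had fewer CpG, 4 and 9, at 49.7% and 58.7% GC, against medians of 7 CpG and 52.7% GC over 32817 windows. Both Rgs3 windows held 1 TATAAA, which 13.6% of all windows hold, beginning at -100 and -177 from their starts. The Rgs2 window held 1 CAGCTG, which 16.3% hold. CAGGTG (20.2% of all windows) and TGAGTCA (5.2%) did not occur in the windows of these 5 genes.

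Across the 5 groups, Rgs16 and Rgs3 were highest in Venus-high Tfh, Rgs10 followed the order of Rgs3 within a narrower range, and Rgs14 and Rgs19 were lowest in Tfh cells. Rgs1 and Rgs2 were lowest in naive cells, and Rgs18 was at the bottom of the scale everywhere. A limma F test over the 5 groups called 5 of the 14 probe sets (Benjamini-Hochberg adjusted p under 0.05), 2 of Rgs16, 2 of Rgs3 and that of Rgs14, where 7.42% of all 22061 tested probe sets were called. With the array set as a term in the fit, 12 of 14 were called, against 31.8% of all. The plot of all tested Rgs probe sets by array shows these patterns.

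**Figure D1:**
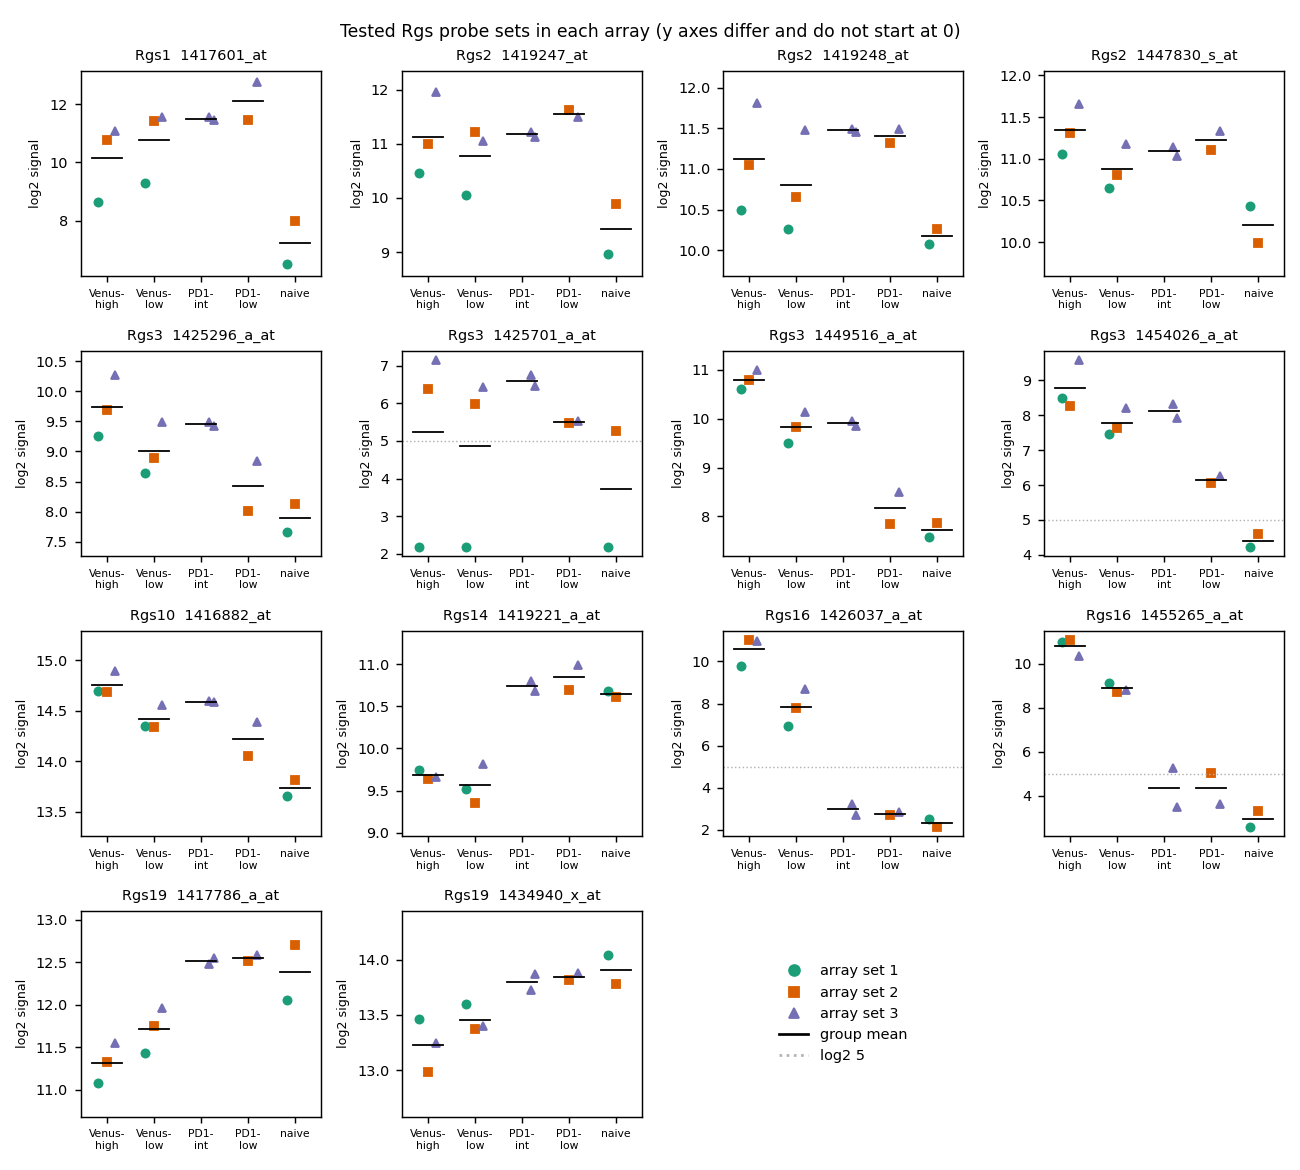
Log2 signal (y axis, scale set for each panel and not starting at 0) of the 14 tested Rgs probe sets in the 12 arrays by sorted group (x axis). Symbols give the array set, black lines the group mean and the dotted line log2 5. Both Rgs16 probe sets separate the Tfh groups from the other 3 groups, Rgs14 and Rgs19 run the other way, and set 1 arrays read 2.18 to 2.19 for 1425701_a_at of Rgs3.

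Rgs16, a small RGS protein that acts on Gi and Gq, was measured well by 2 of its 3 probe sets. Probe set 1426037_a_at read 9.78, 11.01 and 10.96 in Venus-high Tfh, 6.93, 7.81 and 8.70 in Venus-low Tfh, 3.23 and 2.70 in PD1-intermediate Th, 2.68 and 2.85 in PD1-low Th and 2.49 and 2.12 in naive cells. Every Venus-high array was above every Venus-low array, and both Tfh groups were above all others, whose arrays stayed below log2 5. Probe set 1455265_a_at read 10.98, 11.08 and 10.37 in Venus-high Tfh, 9.12, 8.72 and 8.82 in Venus-low Tfh, 5.25 and 3.48 in PD1-intermediate Th, 5.06 and 3.61 in PD1-low Th and 2.58 and 3.30 in naive cells. Its order was the same, with PD1-intermediate and PD1-low arrays overlapping. In such pooled cells, fewer cells with a transcript and less transcript per cell cannot be told apart.

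Between Venus-high and Venus-low Tfh, Rgs16 differed by 2.77 ± 0.50 log2 units (SE, 6.82-fold) on 1426037_a_at and by 1.92 ± 0.54 (3.79-fold) on 1455265_a_at. Within array sets 1, 2 and 3 these differences were 2.85, 3.20 and 2.26, and 1.86, 2.36 and 1.54. The limma fit by group alone called neither (adjusted p = 0.0746 and 0.307). With each same-numbered pair of Tfh arrays as a block, both rose (limma, adjusted p = 0.0358 and 0.0452, n = 3 pairs). These pairs coincide with array sets 1, 2 and 3, so the block cannot tell a shared pool of mice from a shared set. The limma fit with the array set term called 1426037_a_at (adjusted p = 0.00749) and not 1455265_a_at (adjusted p = 0.0577). S1pr2, by whose reporter the cells were sorted, was likewise higher in each of the 3 pairs.

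Rgs16 rose in Venus-low Tfh over PD1-intermediate Th, at least 7.03-fold on 1426037_a_at (4.85 ± 0.56, adjusted p = 0.0252) and by 4.52 ± 0.60 on 1455265_a_at (adjusted p = 0.0384; n = 3 and 2). The lower bound sets the group whose arrays all read below log2 5 to that level. On 1455265_a_at the PD1-intermediate arrays read 5.25 and 3.48, on either side of it, so no bound was set and the size is uncertain. Within array set 3, which alone held Venus-low Tfh and PD1-intermediate Th, the differences were 5.73 and 4.46. The first call was lost without Venus-low replicate 2 or 3, or without any 1 of the 6 PD1-intermediate, PD1-low and naive arrays (adjusted p up to 0.399). The second was lost whichever of the 12 arrays was left out (adjusted p = 0.0539 to 0.459). Rgs16 also rose in Venus-high Tfh over naive cells, at least 47.9-fold on 1426037_a_at (adjusted p = 6.96e-05) and at least 56.0-fold on 1455265_a_at (adjusted p = 1.29e-04). These calls held whichever array was left out. Probe set 1426037_a_at passed the filter on low values through the 6 Tfh arrays alone. Its tests of Tfh cells against PD1-intermediate Th and naive cells, and its F test, are therefore not independent of that filter. The counts of called probe sets that include these tests share this limit. The remaining probe set, 1451452_a_at, read 5.09 in Venus-high replicate 3 and 2.14 to 2.31 on the other 11 arrays.

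Rgs3, which acts on Gi and Gq and has several isoforms, was read by 4 probe sets. Probe set 1449516_a_at read 10.62, 10.80 and 10.99 in Venus-high Tfh, 9.50, 9.84 and 10.14 in Venus-low Tfh, 9.96 and 9.85 in PD1-intermediate Th, 7.85 and 8.51 in PD1-low Th and 7.58 and 7.86 in naive cells. Venus-high arrays stood above all others, Venus-low and PD1-intermediate arrays overlapped, and PD1-low and naive arrays overlapped at the low end. Probe set 1454026_a_at read 8.50, 8.27 and 9.58 in Venus-high Tfh, 7.48, 7.64 and 8.22 in Venus-low Tfh, 8.32 and 7.92 in PD1-intermediate Th, 6.05 and 6.26 in PD1-low Th and 4.23 and 4.58 in naive cells. Here PD1-low arrays were above naive arrays, and Venus-high and PD1-intermediate arrays overlapped. Probe set 1425296_a_at read 9.26, 9.68 and 10.27 in Venus-high Tfh, 8.64, 8.89 and 9.49 in Venus-low Tfh, 9.49 and 9.42 in PD1-intermediate Th, 8.01 and 8.85 in PD1-low Th and 7.66 and 8.12 in naive cells. It had the same order of group means, with every neighbouring pair of groups overlapping.

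In Venus-high over Venus-low Tfh, Rgs3 differed by 0.97 ± 0.27 on 1449516_a_at, 1.00 ± 0.38 on 1454026_a_at and 0.73 ± 0.37 on 1425296_a_at, and was higher in every pair on each. The fit by group alone called none (limma, adjusted p = 0.296, 0.620 and 0.996). With the pair as a block, 1449516_a_at rose (adjusted p = 0.0470) and the others were not called (adjusted p = 0.0781 and 0.0572). With the array set term all 3 rose (adjusted p = 0.00747, 0.0362 and 0.0101).

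Rgs3 also separated PD1-intermediate from PD1-low Th. It rose by 1.72 ± 0.33 on 1449516_a_at (3.30-fold, adjusted p = 0.0388, n = 2 and 2), a call that was lost without any 1 of 9 arrays (adjusted p up to 0.347). The arrays whose omission kept it were Venus-low replicates 1 and 3 and PD1-low replicate 2. The difference was 1.96 ± 0.47 on 1454026_a_at (adjusted p = 0.0974) and 1.03 ± 0.45 on 1425296_a_at (adjusted p = 0.614), and both rose with the array set term (adjusted p = 0.0203 and 0.0265). Without Venus-high replicate 3 the call of 1454026_a_at was gained (adjusted p = 0.0376).

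Against naive cells, Rgs3 rose in Venus-high Tfh by 3.08 ± 0.30 on 1449516_a_at (8.44-fold, adjusted p = 4.50e-04), at least 13.8-fold on 1454026_a_at (adjusted p = 4.55e-04) and by 1.84 ± 0.41 on 1425296_a_at (3.58-fold, adjusted p = 0.0299). The first and second of these calls held whichever array was left out, and the last was lost without any 1 of 7 arrays: Venus-high replicate 2 or 3, Venus-low replicate 2, either PD1-intermediate or either naive array. The displaced probe set 1425701_a_at read 2.18, 6.39 and 7.15 in Venus-high Tfh, 2.19, 5.98 and 6.44 in Venus-low Tfh, 6.75 and 6.45 in PD1-intermediate Th, 5.48 and 5.53 in PD1-low Th and 2.19 and 5.26 in naive cells. Outside set 1 its order of groups was that of the other probe sets, and it was called in none of the 5 comparisons (limma, smallest adjusted p = 0.734).

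Rgs1, which damps Gi signals in B and T cells, was low in naive cells and highest in PD1-low Th. It read 8.64, 10.76 and 11.08 in Venus-high Tfh, 9.30, 11.42 and 11.57 in Venus-low Tfh, 11.55 and 11.45 in PD1-intermediate Th, 11.47 and 12.76 in PD1-low Th and 6.50 and 7.99 in naive cells. All groups but the naive one overlapped with their neighbours in this order, and in every group with a set 1 array that array was the lowest. The difference of PD1-low Th over naive cells was 4.87 ± 1.04 (limma, adjusted p = 0.422, n = 2 and 2), and with the array set term Rgs1 rose by 3.65 ± 0.30 (adjusted p = 0.0127). Set 2 alone held both groups, with 1 array of each, and there the difference was 3.48. The rest of the estimate came through sets shared with other groups. Beside this, the summed log2 signal of 4 CD8, NK and gamma delta T cell markers was 21.6 to 23.0 in PD1-low Th and 17.0 to 19.5 in naive cells. Of these, Klrd1 read 10.80 and 11.50 in PD1-low Th and 9.45 and 9.73 in naive cells, Cd8b1 read 6.35 and 6.62 against 3.08 and 5.15, and Cd8a and Ncr1 were below log2 5 on every array. The sum of 5 B cell markers was 17.5 to 18.8 in PD1-low Th and 11.9 to 15.5 in naive cells. Among these Cd79b read 5.83 and 8.99 in PD1-low Th and 2.61 and 2.81 in naive cells, and was highest on the array where Rgs1 was highest. The displaced Pax5 read 5.68 and 2.03 in PD1-low Th and 2.06 and 5.69 in naive cells, high on the set 2 arrays. The sum thus also follows the array set. Cd79a, Ms4a1 and Blk were below log2 5 on every array. The part of such cells in the result was not tested.

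Rgs1 differed by 2.92 ± 0.95 between Venus-high Tfh and naive cells (adjusted p = 0.131), and rose by 2.41 ± 0.26 with the array set term (adjusted p = 7.67e-04). Between the Tfh groups it was lower in Venus-high cells in all 3 pairs, by -0.66, -0.66 and -0.49, a mean difference of -0.60 (adjusted p = 1.00 by group and 0.0703 with the pair as a block). Rgs1 thus ran opposite to both tested Rgs16 probe sets and to 3 of the 4 Rgs3 probe sets in each pair, without passing the test. The exception was the displaced 1425701_a_at, at -0.0043 in set 1.

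Rgs2, which prefers Gq among alpha subunits, varied less. Probe set 1419247_at read 10.45, 11.00 and 11.95 in Venus-high Tfh, 10.05, 11.21 and 11.05 in Venus-low Tfh, 11.22 and 11.13 in PD1-intermediate Th, 11.62 and 11.49 in PD1-low Th and 8.96 and 9.89 in naive cells. The naive arrays were the lowest, and the Tfh and PD1-intermediate groups overlapped. Its other probe sets, 1419248_at and 1447830_s_at, ranged over 10.08 to 11.81 and 9.99 to 11.66 on the 12 arrays, again with the naive arrays lowest, whereas 1443250_at stayed at 2.11 to 2.16. In Venus-high Tfh over naive cells Rgs2 rose on 1447830_s_at by 1.13 ± 0.28 (2.19-fold, limma, adjusted p = 0.0484), a call lost without any 1 of 10 arrays, all but Venus-high replicate 1 and Venus-low replicate 3. Probes of an _s_at set can be shared with other transcripts. Probe sets 1419247_at and 1419248_at differed by 1.71 ± 0.52 (adjusted p = 0.105) and 0.95 ± 0.45 (adjusted p = 0.361), and all 3 rose with the array set term (adjusted p = 0.00499, 0.0344 and 0.00572 for 1419247_at, 1419248_at and 1447830_s_at).

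Rgs18, known mainly from platelets and their precursors, stayed at 2.23 to 2.32 on 1420398_at and 2.12 to 2.17 on 1449856_at. The 4 platelet markers Pf4, Ppbp, Gp9 and Itga2b were also below log2 5 on every array. On chromosome 1 of RefSeq, Rgs2, Rgs13, Rgs1, Rgs21 and Rgs18 follow each other with no protein-coding gene between them. Of these neighbours, Rgs2 and Rgs1 were measured on all 12 arrays, while Rgs13, a gene of germinal centre B cells, read 2.22 to 2.35.

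Rgs10, a short protein of the second subfamily that acts on Gi, read 14.70, 14.68 and 14.89 in Venus-high Tfh, 14.35, 14.34 and 14.55 in Venus-low Tfh, 14.59 and 14.58 in PD1-intermediate Th, 14.05 and 14.39 in PD1-low Th and 13.65 and 13.82 in naive cells. Its order of groups was that of 1449516_a_at of Rgs3, and among neighbours in that order Venus-low and PD1-low arrays alone overlapped. It rose in Venus-high Tfh over naive cells by 1.02 ± 0.22 (2.03-fold, limma, adjusted p = 0.0241, n = 3 and 2). This call was lost without any 1 of 6 arrays, Venus-high replicate 2 or 3, either PD1-intermediate or either naive array. Between the Tfh groups it was higher in Venus-high cells by 0.35, 0.34 and 0.33 in the 3 pairs (adjusted p = 1.00 by group and 0.135 with the pair as a block).

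Rgs14, which joins an RGS domain to Ras-binding domains and a GoLoco motif that holds inactive Gi, was lower in both Tfh groups. It read 9.74, 9.63 and 9.66 in Venus-high Tfh, 9.52, 9.35 and 9.81 in Venus-low Tfh, 10.80 and 10.68 in PD1-intermediate Th, 10.70 and 11.00 in PD1-low Th and 10.69 and 10.62 in naive cells. No Tfh array reached any array of the other groups, and neighbouring groups on each side overlapped. Rgs14 fell by 0.97 ± 0.23 in Venus-high Tfh against naive cells (1.96-fold lower, limma, adjusted p = 0.0363), a call lost without any 1 array other than Venus-low replicate 3. Against PD1-intermediate Th, Venus-low Tfh differed by -1.18 ± 0.23 (adjusted p = 0.137, n = 3 and 2), by -0.92 within set 3, and fell with the array set term (-1.05 ± 0.14, adjusted p = 0.0273).

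Rgs19, which acts on Gi, ran the same way as Rgs14. Probe set 1417786_a_at read 11.08, 11.33 and 11.54 in Venus-high Tfh, 11.44, 11.75 and 11.97 in Venus-low Tfh, 12.48 and 12.55 in PD1-intermediate Th, 12.51 and 12.59 in PD1-low Th and 12.06 and 12.70 in naive cells. Probe set 1434940_x_at, whose probes may bind other transcripts, read 13.46, 12.98 and 13.25 in Venus-high Tfh, 13.60, 13.37 and 13.40 in Venus-low Tfh, 13.73 and 13.87 in PD1-intermediate Th, 13.81 and 13.88 in PD1-low Th and 14.04 and 13.78 in naive cells. On both, all Tfh arrays lay below all other arrays, while Venus-high and Venus-low arrays overlapped. Venus-high Tfh differed from naive cells by -1.06 ± 0.28 and -0.68 ± 0.23 (limma, adjusted p = 0.0640 and 0.154), and both probe sets fell with the array set term (adjusted p = 6.45e-04 and 0.00538). Venus-high arrays read lower than Venus-low arrays in every pair, by -0.40 and -0.23 on average (adjusted p = 0.109 and 0.296 with the pair as a block).

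**Figure D2:**
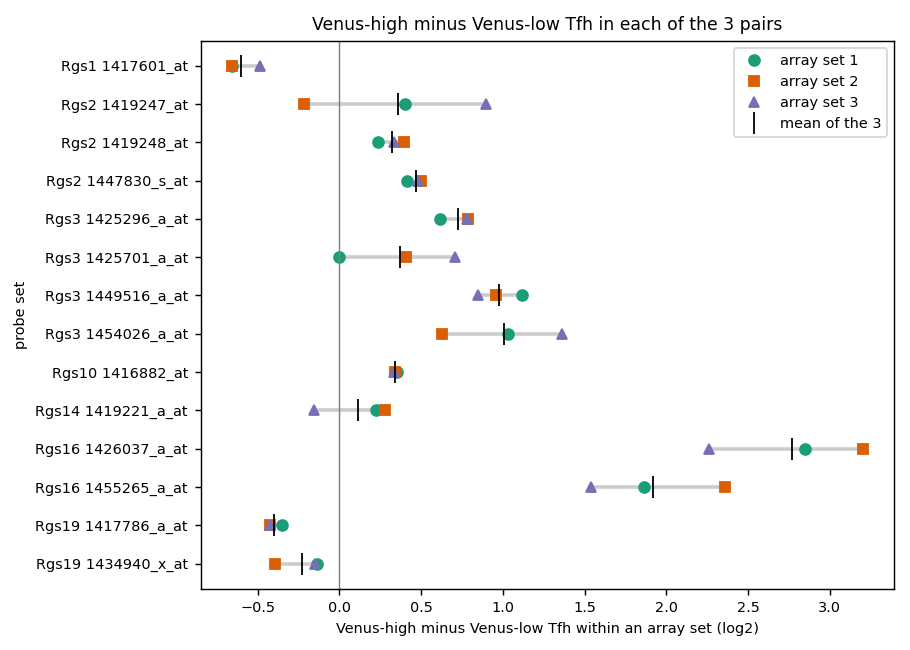
Venus-high minus Venus-low Tfh difference of each tested Rgs probe set (rows) within array sets 1, 2 and 3, in log2 units on the x axis, with the mean of the 3 as a black tick. Rgs16 differed by 1.54 to 3.20 in the 3 pairs, Rgs1 and both Rgs19 probe sets lay left of 0 in every pair, and 1419247_at of Rgs2, 1425701_a_at of Rgs3 and Rgs14 changed sign between pairs.

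In counts, the fit by group called 0 of 14 Rgs probe sets between Venus-high and Venus-low Tfh (limma, 4 at an unadjusted p under 0.05), where 0.417% of all tested probe sets were called. With the pair as a block 3 of 14 rose and 0 fell, against 1.08% higher and 1.79% lower of all, and with the array set term 4 rose and 0 fell, against 3.76% higher and 5.2% lower of all. Between Venus-low Tfh and PD1-intermediate Th 2 rose and 0 fell (0.109% higher and 0.0725% lower of all), and with the array set term 2 rose and 1 fell (1.13% and 0.766%). Between PD1-intermediate and PD1-low Th 1 rose and 0 fell (1.49% higher and 0.499% lower of all), and 3 rose and 0 fell with the array set term (4.5% and 2.72%).

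Between PD1-low Th and naive cells 0 of 14 were called (limma, 5 at an unadjusted p under 0.05, 0.0317% of all called in either direction), and 1, Rgs1, rose with the array set term and 0 fell (0.163% higher and 0.068% lower of all). Between Venus-high Tfh and naive cells 7 rose and 1 fell (5.43% higher and 2.33% lower of all), and with the array set term 10 rose and 3 fell (13.8% and 15.2%). The median difference of the 14 Rgs probe sets was 0.37, -0.37, 0.05, 0.77 and 1.61 in the 5 comparisons in the order given here, against 0.04, -0.43, 0.26, 0.32 and 0.16 over all tested probe sets. After quantile normalization over all 12 arrays the medians were 0.38, -0.01, -0.21, 0.59 and 1.33 for the Rgs probe sets, against 0.03, -0.02, -0.01, -0.00 and -0.08 over all. The comparisons share arrays and are not independent of each other.

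**Figure D3:**
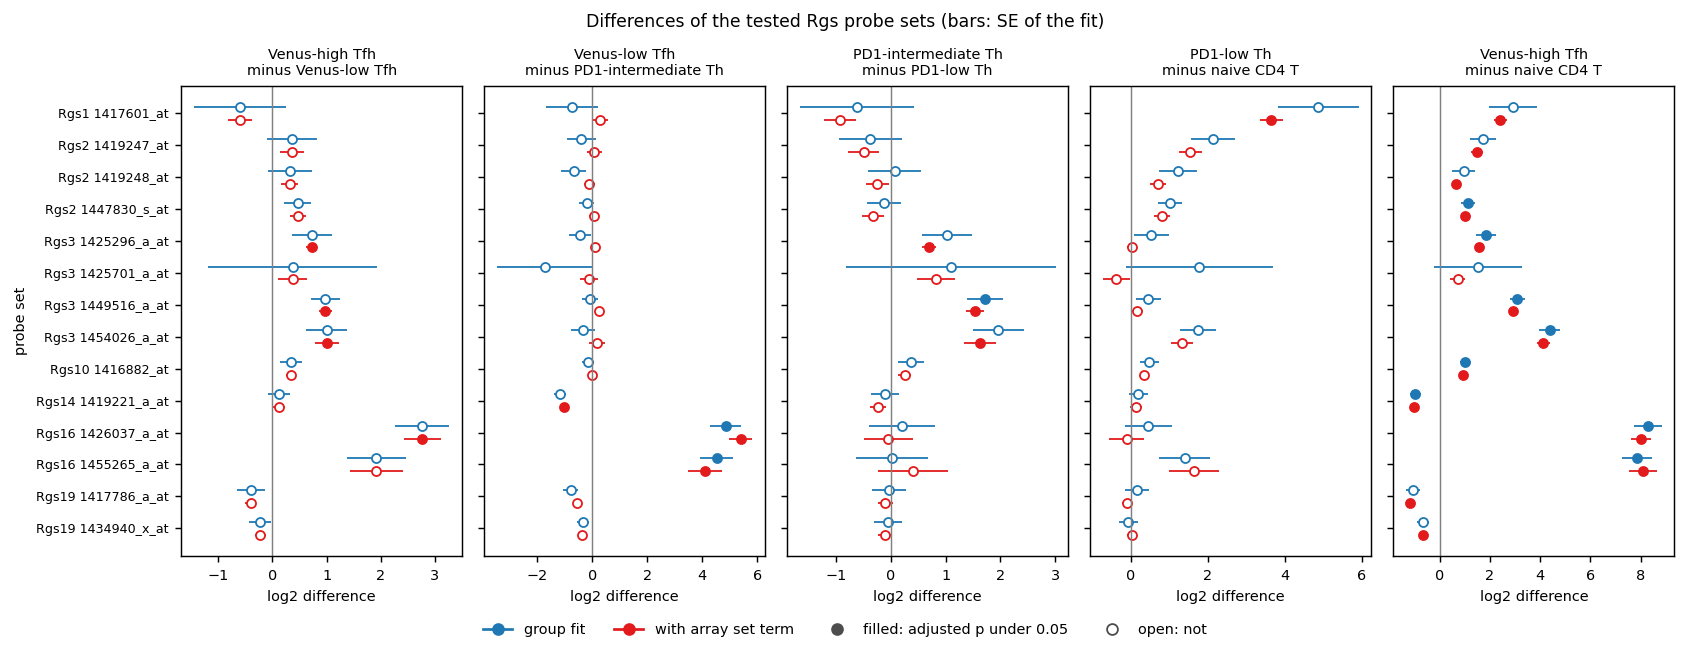
Log2 differences (x axes) of the 14 tested Rgs probe sets in the 5 comparisons, from the fit by group (blue) and with the array set term (red), with bars for the SE and filled points for an adjusted p under 0.05. Rgs16 differed by 4.52 and 4.85 between Venus-low Tfh and PD1-intermediate Th, whose arrays read below log2 5 except 1 on 1455265_a_at. The 4 Rgs3 probe sets differed by 1.03 to 1.96 between PD1-intermediate and PD1-low Th.

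Of 13 other Rgs genes looked up, 11 had probe sets on the array, 24 in number, and 2 genes passed the filter on low values, Rgs8 and Rgs11. Rgs8, a small RGS protein best known from brain and the gene next to Rgs16 on chromosome 1, read 4.89, 6.03 and 7.83 in Venus-high Tfh and 2.20, 2.33 and 4.31 in Venus-low Tfh. It read 2.18 to 2.35 on the 6 other arrays, so that Venus-high arrays stood above all others. It reached log2 5 on Venus-high replicates 2 and 3 alone and so passed the filter only through the group where it was high, and its values are given as a description, with no test. Rgs11, of a subfamily known from the nervous system, read 6.36, 4.51 and 2.81 in Venus-high Tfh, 4.25, 2.14 and 2.81 in Venus-low Tfh, 2.80 and 2.61 in PD1-intermediate Th, 7.55 and 6.46 in PD1-low Th and 9.08 and 7.73 in naive cells. PD1-low and naive arrays were thus above all CXCR5+ arrays, but narrowly for PD1-low replicate 2 (6.46) over Venus-high replicate 1 (6.36). Rgs11 was called in none of the 5 comparisons by group (limma, 2 at an unadjusted p under 0.05). With the array set term the differences were -3.91 ± 0.58 in PD1-intermediate against PD1-low Th and -3.31 ± 0.51 in Venus-high Tfh against naive cells. They are given as a description, with no p-value. Rgs11 reached log2 5 only on the PD1-low and naive arrays and on Venus-high replicate 1. It thus passed the filter through the groups where it was high. Both PD1-intermediate arrays read below log2 5, so the first difference has only a bound, at least 4.01-fold lower by group means. The Venus-high arrays lay on either side of log2 5, so the size of the second is uncertain.

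**Figure D4:**
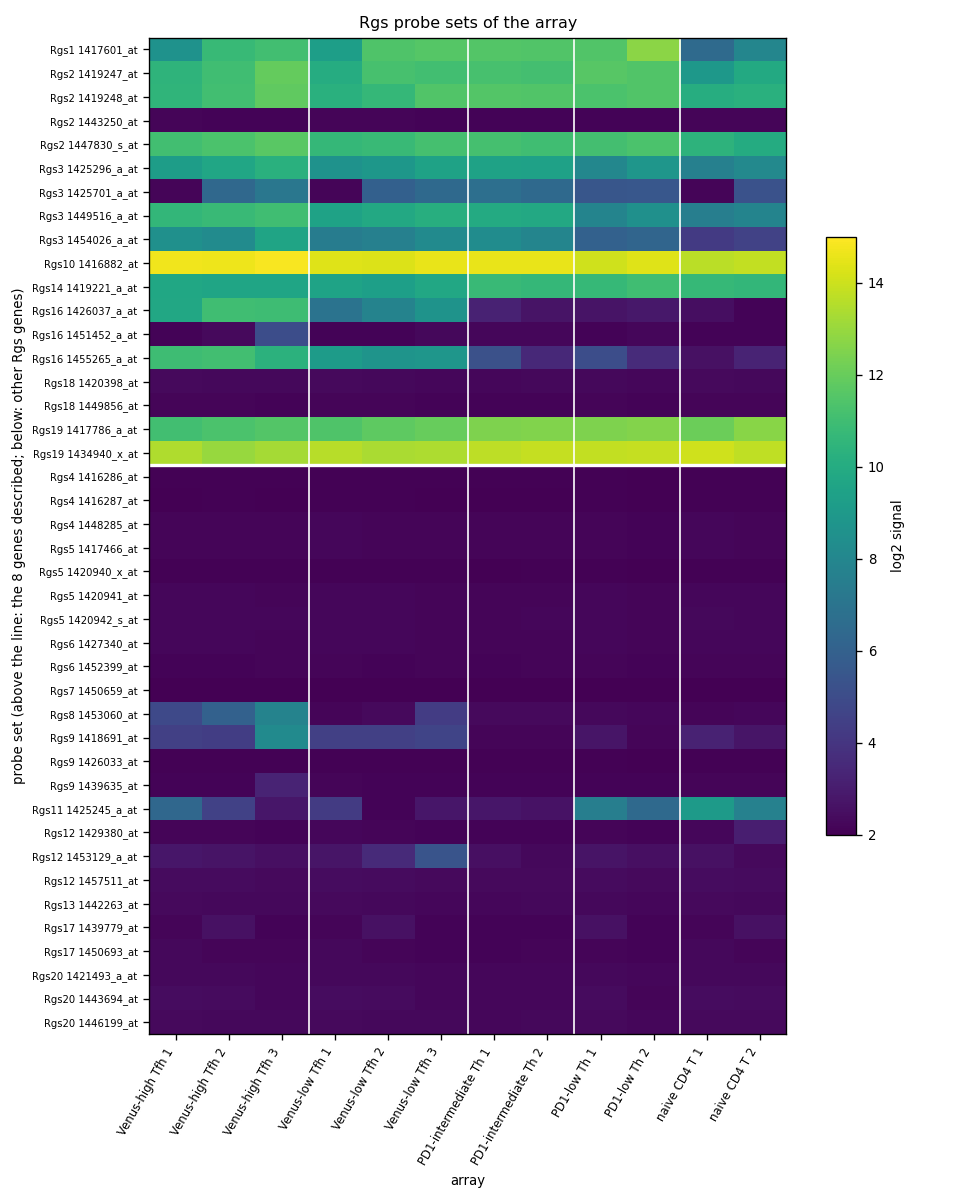
Log2 signal (colour) of all 42 Rgs probe sets of the array (rows) in the 12 arrays (columns, by sorted group), with the 8 genes described above the horizontal white line. Colours compare arrays within a row. The Rgs18 rows and most rows of other Rgs genes stay dark. Within its row Rgs8 is lighter in Venus-high Tfh, at 4.89, 6.03 and 7.83, and Rgs11 in PD1-low and naive cells.

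Among the partners of RGS proteins, 8 of 13 G alpha subunit genes were tested, and 2 rose and 0 fell in Venus-high Tfh over naive cells, where 5.43% of all probe sets rose and 2.33% fell. With the array set term 3 rose and 1 fell, Gna11 (-1.41 ± 0.26, adjusted p = 0.00738), where 13.8% and 15.2% of all did. Gna14, a subunit of the Gq class, rose at least 44.7-fold (limma, adjusted p = 3.88e-04) and Gna13, through which S1pr2 is known to signal, rose by 1.97 ± 0.39 (adjusted p = 0.0177). Gna14 read 9.49, 10.41 and 11.55 in Venus-high Tfh, 7.21, 8.23 and 8.81 in Venus-low Tfh, 6.98 and 7.02 in PD1-intermediate Th and 3.44 to 4.13 on the 4 PD1-low and naive arrays. The groups thus fell in the same order as for Rgs16, with PD1-intermediate Th also above log2 5. Gna14 passed the filter on low values through the CXCR5+ arrays alone. Its test against naive cells is therefore not independent of that filter, and the counts that include it share this limit. Gnaq and Gnas were read by displaced probe sets. In the other 4 comparisons 0 of 8 were called (1, 0, 1 and 0 at an unadjusted p under 0.05, and 2, 1, 1 and 0 with the array set term). Of 15 G beta and gamma subunit genes 8 were tested, and in the 5 comparisons Gng2 alone was called, rising by 2.54 ± 0.47 in Venus-high Tfh over naive cells (adjusted p = 0.0125). With the array set term 0, 1, 1, 0 and 2 of these 8 rose and 2, 0, 1, 0 and 2 fell in the 5 comparisons. Of all probe sets, 3.76%, 1.13%, 4.5%, 0.163% and 13.8% rose with this term and 5.2%, 0.766%, 2.72%, 0.068% and 15.2% fell. Among these 8 genes, Gnb4 fell with it in Venus-high against Venus-low Tfh (-1.32 ± 0.13, adjusted p = 0.00465, lower in all 3 pairs) and in Venus-high Tfh against naive cells (-2.00 ± 0.15, adjusted p = 1.69e-04). Of 12 kinases, arrestins and other regulators of receptors and G proteins 9 were tested and 0 called in any comparison (limma, 1, 1, 1, 0 and 0 at an unadjusted p under 0.05, and 1, 1, 0, 0 and 0 with the array set term). By group, 0.417% of all probe sets were called between the Tfh groups and 0.0317% between PD1-low Th and naive cells. Between Venus-low Tfh and PD1-intermediate Th 0.109% rose and 0.0725% fell, and between PD1-intermediate and PD1-low Th 1.49% rose and 0.499% fell. These shares and those above hold for each list of this paragraph.

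Of 14 chemoattractant receptor genes that signal through Gi, 11 were tested, Ccr9 by a displaced probe set. Between Venus-high and Venus-low Tfh 0 rose and 1 fell, Ccr7 (at least 15.4-fold lower, limma, adjusted p = 0.00434), and 5 fell with the array set term. Between PD1-intermediate and PD1-low Th 2 rose, Gpr183, the EBI2 receptor (1.85 ± 0.35, adjusted p = 0.0372), and Cxcr5, a gene of the gate, and 0 fell, while 5 rose and 1 fell with the array set term. Between Venus-high Tfh and naive cells 4 rose and 2 fell, the largest changes being those of Cxcr5 (at least 617-fold higher) and Ccr7 (at least 312-fold lower, adjusted p = 1.65e-05), and 4 rose and 3 fell with the array set term. Between Venus-low Tfh and PD1-intermediate Th, and between PD1-low Th and naive cells, 0 were called (1 and 3 at an unadjusted p under 0.05, and 1 and 0 with the array set term). By group, 0.417% of all probe sets were called between the Tfh groups. Between PD1-intermediate and PD1-low Th 1.49% rose and 0.499% fell, and in Venus-high Tfh against naive cells 5.43% and 2.33%. With the array set term these shares were 3.76% and 5.2%, 4.5% and 2.72%, and 13.8% and 15.2%, higher and lower. The shares of the remaining comparisons are those given for the Rgs genes.

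The genes whose signal over the 12 arrays correlated best with the widest-ranging members were taken by a rule and are given as a description, since arrays of 1 set share their scale. For Rgs16 (1455265_a_at) they were Padi4, Sostdc1 and Pgam2 (Pearson r = 0.981, 0.981 and 0.973). For Rgs3 (1449516_a_at) they were Tmem140, Atcay and 6330403K07Rik (r = 0.991, 0.988 and 0.986), and for Rgs1 they were Gosr1, Fem1b and Il2rb (r = 0.962, 0.958 and 0.937), the last read by a displaced probe set.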

How the data were processed

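The authors deposited log2 signals per probe set for 12 Affymetrix arrays, made with GCRMA per the submitters' processing notes. GCRMA adjusts background by probe sequence, quantile-normalizes and summarises probes. Its version and the arrays normalized together are not given in the sources used here. Per the labels' protocols, 20 ng of total RNA were amplified. No scanner files or detection calls were used here.

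Groups came from the sample titles. Gene symbols came from the platform annotation, which gave 34958 of 45101 probe sets 1 symbol, 932 several and 9211 none. Probe sets at log2 5 or more on at least 2 arrays (22061) entered 1 limma 3.58.1 fit (R 4.3.3) of 5 group means on all 12 arrays, with 7 residual degrees of freedom, 2-sided moderated tests and Benjamini-Hochberg adjustment over all probe sets at 0.05. For other lists, the tested probe set of highest mean stood for a gene. Array sets were 3 clusters of the arrays' quantiles. The fit with the array set as a term had 5 residual degrees of freedom. Deviations of same-numbered Tfh arrays from their group means correlated by 0.949, 0.973 and 0.951. PD1-low replicate 1 correlated by 0.922 and 0.925 with replicate 2 of Venus-high and Venus-low Tfh, which share its array set and not its number. The correlations therefore cannot tell pairing by number from a shared array set. A fit with the same-numbered pair as a block, with 2 residual degrees of freedom, is given beside results it changed. No arrays held identical values. The fits were also run on data simulated with independent normal noise. The outcome is not given here and no result rests on it. Figures were drawn in Python 3.11.15 (matplotlib 3.10.9).

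The members, lists and tests were chosen with earlier results of these data known. Named were all probe sets of the 8 genes, at most the 2 called members of largest change per other list and comparison, gate genes, and the 3 genes of highest correlation with each of the 3 widest-ranging members. Rgs11, Rgs13, Gna11, Gnb4 and the displaced Gnaq, Gnas and Ccr9 fall outside this rule, and their values were known when they were picked. The alternatives changed the filter, covariates, normalization, variance model, unit of the fit and arrays.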

Additional observations from a re-analysis of the deposited data

How the results depend on the processing

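Counts of called Rgs probe sets moved as follows, in the order 5 groups, Venus-high against Venus-low Tfh, Venus-low Tfh against PD1-intermediate Th, PD1-intermediate against PD1-low Th, PD1-low Th against naive cells, and Venus-high Tfh against naive cells. They were 5, 0, 2, 1, 0 and 8 by group, 12, 4, 3, 3, 1 and 13 with the array set term, 12, 7, 4, 3, 1 and 13 with the set as a random block, 9, 2, 1, 2, 0 and 9 after quantile normalization, 10, 0, 5, 2, 0 and 10 with the replicate number as a block on all 12 arrays, and 7, 0, 0, 1, 0 and 10 with a variance trend and robust estimation. With 1 probe set a gene (7 genes) they were 3, 0, 1, 1, 0 and 4, with the mean of a gene's probe sets 4, 1, 1, 0, 0 and 5, and without displaced probe sets 6, 1, 2, 1, 0 and 9. On the 6 Tfh arrays alone, the count was 3 with the replicate block and 0 with no block, and among these 14 probe sets the block changed no other call between the Tfh groups. Over all probe sets the counts, in the same order, were 1636, 92, 40, 439, 7 and 1711 by group and 7023, 1977, 419, 1593, 51 and 6382 with the array set term. On the 6 Tfh arrays with the replicate block 634 of all probe sets were called. For the other settings no counts over all probe sets are given. The Rgs counts there cannot be told apart from a shift of the whole array. Leaving out each array gave Rgs counts of 4 to 5, 0 to 0, 0 to 1, 0 to 1, 0 to 0 and 4 to 8. Without set 2 the counts were 0, 0, 0, 0, 0 and 4, and without set 1, 3, 0, 0, 0, 0 and 4, both chosen after seeing the data and leaving some groups with 1 array that was assumed to vary like the others.

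Of 827 alternative values of 34 Rgs differences, 687 kept direction and side of the threshold and 6 turned sign, none of them called. These were, in Venus-high against Venus-low Tfh, Rgs1 without Venus-high replicate 1 (0.16), 1419247_at and 1419248_at of Rgs2 without Venus-high replicate 3 (-0.047 and -0.023), and 1425701_a_at of Rgs3 without Venus-high replicate 2 (-0.20), Venus-high replicate 3 (-0.58) or Venus-low replicate 1 (-0.97). Leaving out each array, these differences ranged from -1.33 to 0.16, -0.047 to 0.70, -0.023 to 0.66 and -0.97 to 1.90. The cause of these changes was not tested beyond the arrays left out. Signals near the bottom of the scale limit Rgs18 and the low Rgs16 groups to bounds.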

Other observations

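Rgs9, an RGS protein known from retina and striatum, read 8.23 on 1418691_at in Venus-high replicate 3, the 1 array on which it reached log2 5, and 2.18 to 4.69 on the other 11. On the same array 1451452_a_at of Rgs16 read 5.09. Rgs12 reached log2 5 on 1 array as well, with 5.39 on 1453129_a_at in Venus-low replicate 3. These values were chosen after the data were seen.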
